A study of Mus musculus with 2 samples.

Results

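The genes described here were measured in cultures of dermal cells. They encode muscle actin isoforms, calponins and transgelins, myosin II subunits and their kinase, and tropomyosins and other thin filament regulators. The rest encode actin cross-linkers, focal adhesion proteins, LIM domain proteins, desmin, and the transcription factor SRF. The 35 genes were taken from a list of contractile, actin-binding and adhesion genes, many of them known SRF targets. No measured value enters the rule, but the list was drawn up with earlier results of these arrays known. All 35 were measured, among 19938 genes in all. For each gene, the probe set with a single gene symbol and the highest mean of both arrays was used.

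Dermal cells were taken from the dorsal skin of newborn C57BL/6 mice (postnatal day 0) and grown for 24 h in DMEM with 10% fetal bovine serum. They were then transfected for 48 h with siRNAs specific for β-catenin (1 array) or with control siRNA (1 array), each at 10 nM. A small interfering RNA (siRNA) directs cleavage of a matching messenger RNA, and β-catenin, encoded by Ctnnb1, is both a linker of cadherins to the actin cytoskeleton and the transcriptional effector of Wnt signalling. The labels do not give the number of cultures or pups per array, and no untransfected cells were analysed here.

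Non-muscle myosin II pulls on actin filaments to form stress fibres, which end at focal adhesions, where talin, vinculin, paxillin and zyxin connect them to integrins. Skin fibroblasts that add smooth muscle proteins such as α-smooth muscle actin and calponin to these fibres are called myofibroblasts. Many of the genes are switched on by SRF, which binds a short AT-rich element called the CArG box, together with its cofactors of the myocardin family (MRTF), which are released to the nucleus when free actin monomers become scarce.

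Values are log2 expression values made by the authors with robust multi-array average (RMA), and every difference is the β-catenin siRNA value minus the control siRNA value. Each group is a single array, so the spread between cultures is unknown, no difference could be tested, and "lower" or "higher" says only how these 2 arrays compare. As a guide to scale, differences of probe sets that measure one gene had a pooled SD of 0.20 within a gene over 748 genes at or above the median level of 5.13, and the robust SD of the difference over all 9969 such genes was 0.21. The median over all probe sets was 4.71 on the β-catenin siRNA array and 4.68 on the control array. The target Ctnnb1 had a value of 9.34 on the β-catenin siRNA array and 10.48 on the control array, or 45.2% of the control signal. Fibroblast markers were present on both arrays, with all 12 of 12 at or above the median level, as were 9 of 18 keratinocyte markers and 6 of 13 smooth muscle and pericyte markers. None of 8 endothelial and none of 10 immune cell markers reached that level.

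The contractile genes were mostly lower after β-catenin siRNA, by modest amounts. Of the 35 genes, 32 were lower and 3 higher by any amount (30 lower with the differences centred on all genes, when Cald1 and Fhl2 changed sign), where 52.5% of all measured genes were lower. The 32 include Myh9 and Tpm3, whose probe sets differed in direction. With the mean of all probe sets per gene, or with the second highest probe set, 31 of the 35 were lower. The median difference of the 35 was -0.28, against -0.02 for all genes. At least 1.5-fold lower were 6 of the 35, or 17.1%, against 2.35% of all genes, and none was 1.5-fold higher, against 2.23% of all genes. At least 2-fold lower were Acta1 and Cnn1, 2 of 35 genes, where the share of all genes was 0.321%. At 80% of the control signal or less were 16 of the 35, against 11.9% of all genes, and none was higher by the same factor, against 8.65% of all genes. All but Des lay at or above the median level, and among the 9969 genes at that level 1.79% were at least 1.5-fold lower. Without 8 genes that also mark muscle cells (Acta1, Actc1, Actg2, Des, Lmod1, Flnc, Cnn1 and Fhl1), 2 of 27, Myl9 and Tpm2, were at least 1.5-fold lower. The 27 still hold genes of smooth muscle, such as Acta2, Tagln and Csrp1, so they are not a list free of muscle genes. The genes and the background share the same pair of arrays, so these counts describe those arrays and not the spread between cultures.

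**Figure D1:**
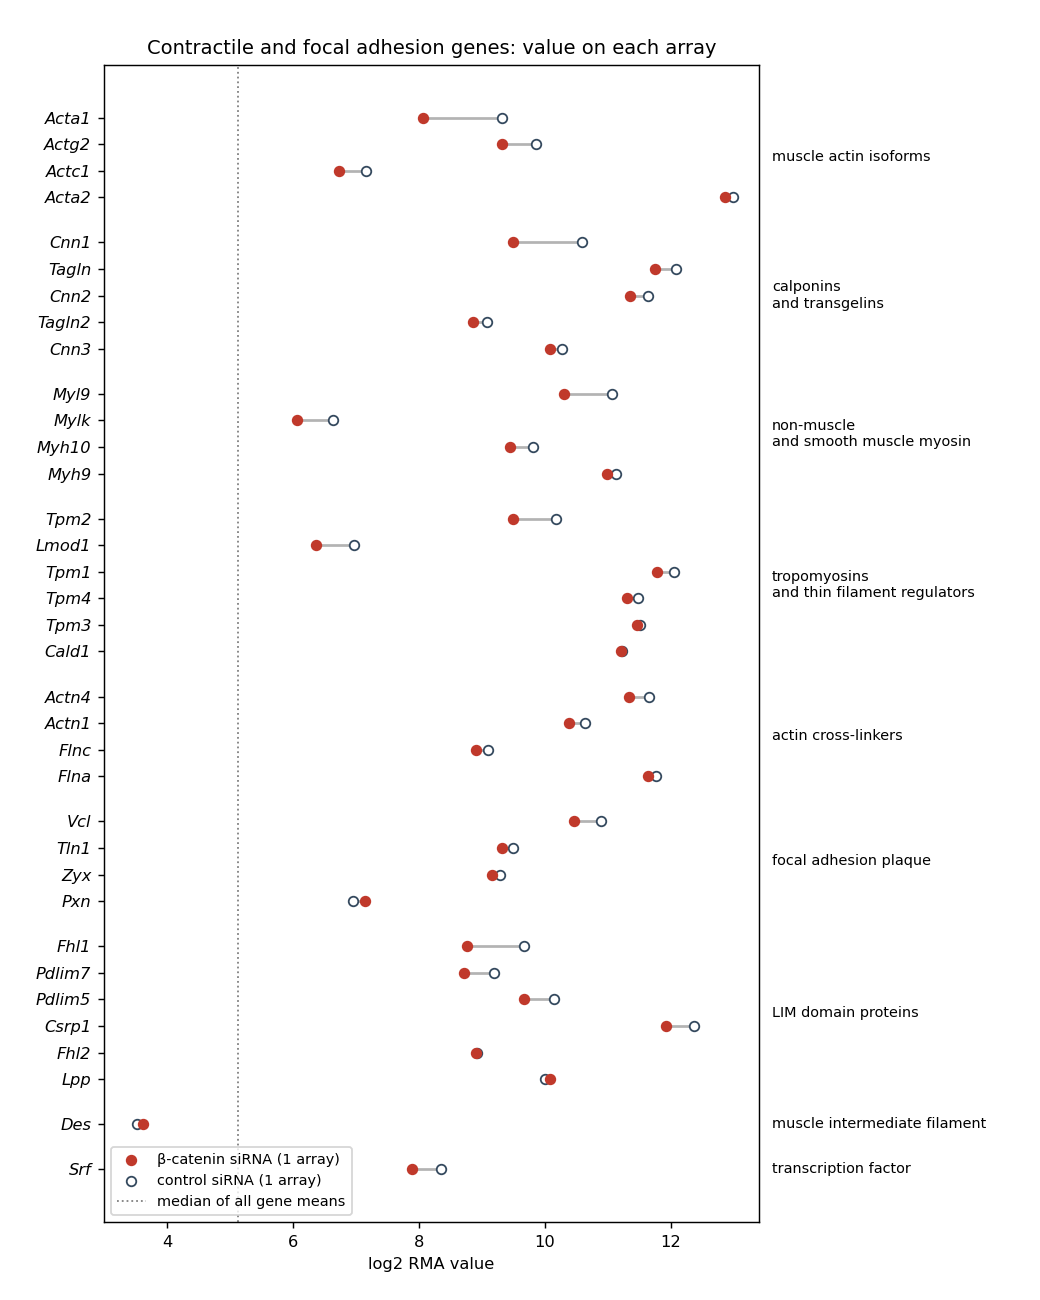
Log2 RMA value of each of the 35 genes (rows, by group) on the β-catenin siRNA array (filled points) and the control siRNA array (open points), with 1 array per group and no error bars; the dotted line is the median of all gene means, 5.13. The filled point lies left of the open point in 32 genes, with the widest gaps at Acta1, Cnn1 and Fhl1, and Des alone lies left of the dotted line.

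Regulatory sequence was examined first, because many of these genes are known targets of one regulator. RefSeq promoter windows of GRCm38.p6, from 250 bases before to 50 after a gene start, were given for 32 of the 35 genes, 8 of which had 2 windows. A CArG box was searched on both strands, which its symmetry makes the same search. It was found in the windows of 8 of 32 genes (25.0%), against 1.81% of the 27025 genes in the table and 1.63% of its 32851 windows. The list was built around SRF targets, so this share reflects in part how the genes were picked. The 10 boxes are shown with 10 bases on either side, in capitals, 5′ to 3′ along the gene's strand, because they are the only exact elements of this kind in these windows.
Acta1: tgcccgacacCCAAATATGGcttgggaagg
Actc1: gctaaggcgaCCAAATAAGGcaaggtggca
Cnn2: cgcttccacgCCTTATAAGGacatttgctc
Fhl1: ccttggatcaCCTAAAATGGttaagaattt
Fhl2, downstream start: gcgcgtgtgtCCTTATATGGtcaaatgact
Fhl2, upstream start: catttagagaCCAAAAAAGGcttgcaggag
Myl9: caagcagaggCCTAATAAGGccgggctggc
Srf, first box: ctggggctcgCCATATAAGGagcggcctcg
Srf, second box: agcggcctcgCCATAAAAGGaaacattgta
Vcl: cccactatgcCCTTATAAGGagcgccccgc

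The boxes lay between 31 bases (Fhl2) and 227 bases (Vcl) before the annotated start. The Acta1 box began 73 bases before the start and the Myl9 box 161 bases before it. On the chromosomes, the stretches shown are chr8:123894829-123894858 (minus strand) for Acta1, chr2:114052903-114052932 (minus) for Actc1, chr10:79988534-79988563 (plus) for Cnn2 and chrX:56779571-56779600 (plus) for Fhl1. Those of Fhl2 are chr1:43163973-43164002 and chr1:43196838-43196867 (minus), and that of Myl9 is chr2:156775293-156775322 (plus). Those of Srf are chr17:46556225-46556254 and chr17:46556205-46556234 (minus), and that of Vcl is chr14:20929161-20929190 (plus). Windows for Actg2, Tagln and Pxn were not used here.

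The 250 bases before the start are given for the gene with the largest difference and for Srf itself, with CArG boxes in capitals. The first is chr8:123894776-123895025 and the other chr17:46556163-46556412, both on the minus strand of GRCm38.p6 and written 5′ to 3′ along the gene.
Acta1: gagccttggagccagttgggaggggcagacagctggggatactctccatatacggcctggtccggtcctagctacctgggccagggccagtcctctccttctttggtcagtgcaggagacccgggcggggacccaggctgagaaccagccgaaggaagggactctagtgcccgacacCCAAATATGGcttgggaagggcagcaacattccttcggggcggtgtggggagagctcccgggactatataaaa
Srf: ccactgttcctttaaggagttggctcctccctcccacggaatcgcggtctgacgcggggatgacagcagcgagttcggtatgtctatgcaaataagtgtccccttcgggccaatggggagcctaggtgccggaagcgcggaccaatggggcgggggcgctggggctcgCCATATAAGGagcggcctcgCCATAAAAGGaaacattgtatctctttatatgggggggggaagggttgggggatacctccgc

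The 8 genes with a box in the window had differences from -1.25 for Acta1 to -0.01 for Fhl2, whose sign changed with centring, and a median difference of -0.44. The 24 genes with a window and no box had a median difference of -0.20. At least 1.5-fold lower were 3 of the 8 and 3 of the 24. Outside the list, 246 measured genes had a CArG box in a window, and their median difference was -0.07. Lower by any amount were 58.5% of them, against 52.5% of all genes, and at least 1.5-fold lower 2.85%, against 2.35% of all genes. Of all 254 measured genes with a box, those of the list included, 10 were at least 1.5-fold lower and 8 at least 1.5-fold higher. Cnn1, more than 2-fold lower, had no box in its window, while Fhl2, nearly equal on the arrays, had a box at each of its starts. The absence of a match says only that these letters are not in this window.

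A further 3 motifs were searched in the same windows. The letters GGAATG, the core of the element bound by TEAD factors, were found on either strand in 13 of 32 genes (40.6%), against 16.6% of genes in the table. The 13 had a median difference of -0.26 and the other 19 one of -0.28. The letters CANNTG, the E-box, were in 23 of 32 genes (71.9%), against 75.0% of genes in the table. The 23 had a median difference of -0.28 and the other 9 one of -0.21. At least 1.5-fold lower were 6 of the 23 and 0 of the 9, against 2.35% of all genes. The letters CTTTGA, the core bound by the β-catenin partners TCF and LEF, were on either strand in 3 of 32 genes (9.38%), against 18.2% of genes in the table. These 3 genes, Tpm3, Flna and Lpp, had a median difference of -0.05, and this motif was chosen after the values were seen. That median is the value of the selected Tpm3 probe set, which cannot be read as Tpm3, as described below. The Tpm3 probe set among genes of chromosome 3 differed by -0.31, Flna by -0.13 and Lpp by 0.08. Among these genes no match of the CArG box overlapped another motif, and 1 match of GGAATG overlapped a match of CANNTG.

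The muscle actin isoforms had the widest range of differences of any group. Actins form the filaments themselves, and the 4 muscle isoforms are nearly identical proteins made from separate genes. Acta1, α-actin of skeletal muscle, had a value of 8.07 after β-catenin siRNA and 9.32 after control siRNA, a difference of -1.25, or 2.38-fold lower. It had the 21st lowest difference of the 19938 genes. Actg2, γ-actin of visceral smooth muscle, had 9.32 after β-catenin siRNA and 9.86 after control siRNA, a difference of -0.54. Actc1, α-actin of the heart, had 6.72 after β-catenin siRNA and 7.15 after control siRNA, a difference of -0.43. Acta2, the α-smooth muscle actin used as the myofibroblast marker, was close to equal on the arrays, with 12.86 after β-catenin siRNA and 12.98 after control siRNA. Its difference of -0.12 was smaller than the pooled SD between probe sets. Probes of these near-identical genes can share signal. The values of Acta2 were near the highest in the table, 13.5. The cytoplasmic actin Actb, which is outside the list and was named after its value was seen, had a difference of -0.09, from 13.06 after β-catenin siRNA and 13.15 after control siRNA.

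Calponins and transgelins bind along actin filaments, and all 5 were lower. Cnn1, calponin 1 of smooth muscle, had 9.50 after β-catenin siRNA and 10.59 after control siRNA, a difference of -1.09, or 2.13-fold lower. The more widely expressed calponins differed much less: Cnn2 by -0.28, with 11.35 after β-catenin siRNA and 11.63 after control siRNA, and Cnn3 by -0.19. Tagln, transgelin or SM22α, a textbook SRF target of smooth muscle, had 11.75 after β-catenin siRNA and 12.08 after control siRNA, a difference of -0.33. Tagln2, its relative in non-muscle cells, differed by -0.21. Cnn1 therefore stood apart from the other 4, which lay between -0.33 and -0.19.

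The myosin genes were lower on the probe sets used, although a dimmer probe set of Myh9 went the other way. Myl9 encodes the regulatory light chain whose phosphorylation switches myosin II on in smooth muscle and fibroblasts. It had 10.30 after β-catenin siRNA and 11.06 after control siRNA, a difference of -0.76, or 1.69-fold lower. Mylk, myosin light chain kinase, which phosphorylates that chain, had 6.07 after β-catenin siRNA and 6.63 after control siRNA, a difference of -0.56, just under 1.5-fold. Myh10, the heavy chain of non-muscle myosin IIB, had 9.44 after β-catenin siRNA and 9.81 after control siRNA, a difference of -0.37. Myh9, the heavy chain of myosin IIA, differed by -0.14, with 10.98 after β-catenin siRNA and 11.12 after control siRNA. The direction of Myh9 was not settled, since its other probe set had 6.18 after β-catenin siRNA and 5.82 after control siRNA, a difference of 0.36. Thus the light chain and its kinase had larger differences than either heavy chain.

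Tropomyosins lie along the actin groove and set which proteins can bind the filament. Tpm2, β-tropomyosin of muscle and stress fibres, had 9.49 after β-catenin siRNA and 10.18 after control siRNA, a difference of -0.69, or 1.61-fold lower. Lmod1, leiomodin 1, which nucleates actin filaments in smooth muscle, had 6.37 after β-catenin siRNA and 6.97 after control siRNA, a difference of -0.60, or 1.52-fold lower. With the median difference of all genes subtracted Lmod1 came under 1.5-fold, at -0.58, so it sits at the threshold. Tpm1 differed by -0.26 and Tpm4 by -0.17. Cald1, caldesmon, which restrains myosin on the filament, was nearly equal at 11.20 after β-catenin siRNA and 11.22 after control siRNA, and its sign changed with centring.

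Tpm3 cannot be read from the probe set that the rule selects. Its 4 probe sets had differences of -0.05, 0.09, 0.10 and -0.31. The selected one, at 11.46 after β-catenin siRNA and 11.51 after control siRNA, stands in probe set number among genes of chromosome 14, and the next 2 stand among genes of chromosome 7, whereas RefSeq places Tpm3 on chromosome 3. The remaining probe set, with neighbours on chromosome 3, had 5.71 after β-catenin siRNA and 6.02 after control siRNA, a difference of -0.31. Of the 41 probe sets of the 35 genes, these 3 were the ones whose neighbours lay on another chromosome.

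Cross-linkers and focal adhesion genes differed little. Actinins bundle filaments in stress fibres: Actn4 differed by -0.32, with 11.33 after β-catenin siRNA and 11.65 after control siRNA, and Actn1 by -0.26. The filamins, which join filaments into networks, had differences of -0.13 for Flna and -0.19 for Flnc. In the adhesion plaque, Vcl, vinculin, had 10.47 after β-catenin siRNA and 10.88 after control siRNA, a difference of -0.42, or 1.34-fold lower. Tln1, talin 1, which activates integrins, differed by -0.18 and Zyx, zyxin, by -0.14. Pxn, the adaptor paxillin, went the other way, with 7.15 after β-catenin siRNA and 6.96 after control siRNA, a difference of 0.19. None of these 8 genes reached 1.5-fold, and only Vcl, Actn4 and Actn1 differed by more than the pooled SD between probe sets.

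**Figure D2:**
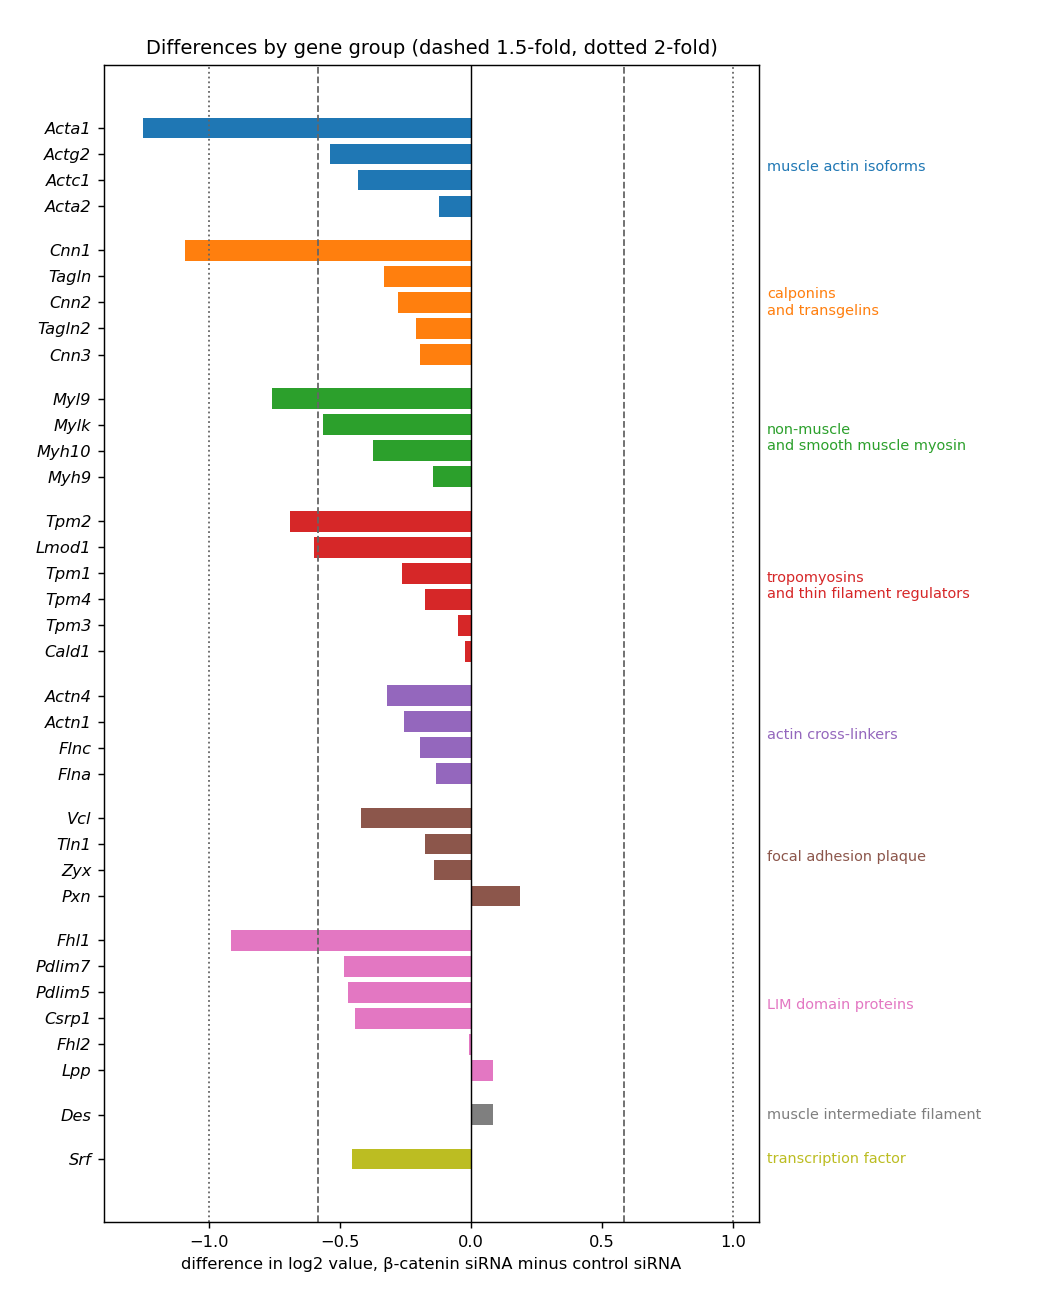
Difference in log2 value, β-catenin siRNA minus control siRNA, for each of the 35 genes (bars, 1 array per group, no error available), in colour by group and ordered within it; dashed lines mark 1.5-fold and dotted lines 2-fold. Within the actins, calponins, myosins, tropomyosins and LIM proteins 1 or 2 genes cross the 1.5-fold line, and no bar of the cross-linkers or of the focal adhesion plaque reaches it.

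LIM domain proteins shuttle between adhesions, stress fibres and the nucleus. Fhl1 had 8.75 after β-catenin siRNA and 9.67 after control siRNA, a difference of -0.92, or 1.89-fold lower. Its relative Fhl2 was nearly equal, with 8.91 after β-catenin siRNA and 8.91 after control siRNA, and its sign changed with centring. Both genes have a CArG box in a window. Proteins with both PDZ and LIM domains, which bind stress fibres, lay in between. Pdlim7 had 8.71 after β-catenin siRNA and 9.20 after control siRNA, a difference of -0.48, and Pdlim5 had 9.67 after β-catenin siRNA and 10.14 after control siRNA, a difference of -0.47. Csrp1, a cysteine-rich LIM protein of smooth muscle, had 11.92 after β-catenin siRNA and 12.36 after control siRNA, a difference of -0.44. Lpp, a zyxin relative, had 10.09 after β-catenin siRNA and 10.00 after control siRNA, a difference of 0.08, and its other probe sets differed by -0.02 and 0.79, the last at values of 3.32 after β-catenin siRNA and 2.54 after control siRNA.

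Srf itself had 7.89 after β-catenin siRNA and 8.35 after control siRNA, a difference of -0.46, or 1.37-fold lower. Des, desmin, the intermediate filament of muscle cells, was dim on both arrays, with 3.61 after β-catenin siRNA and 3.53 after control siRNA. Among all 35 genes Srf ranked near Csrp1 and Pdlim5 in its difference, and Des was the only member below the median level.

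**Figure D3:**
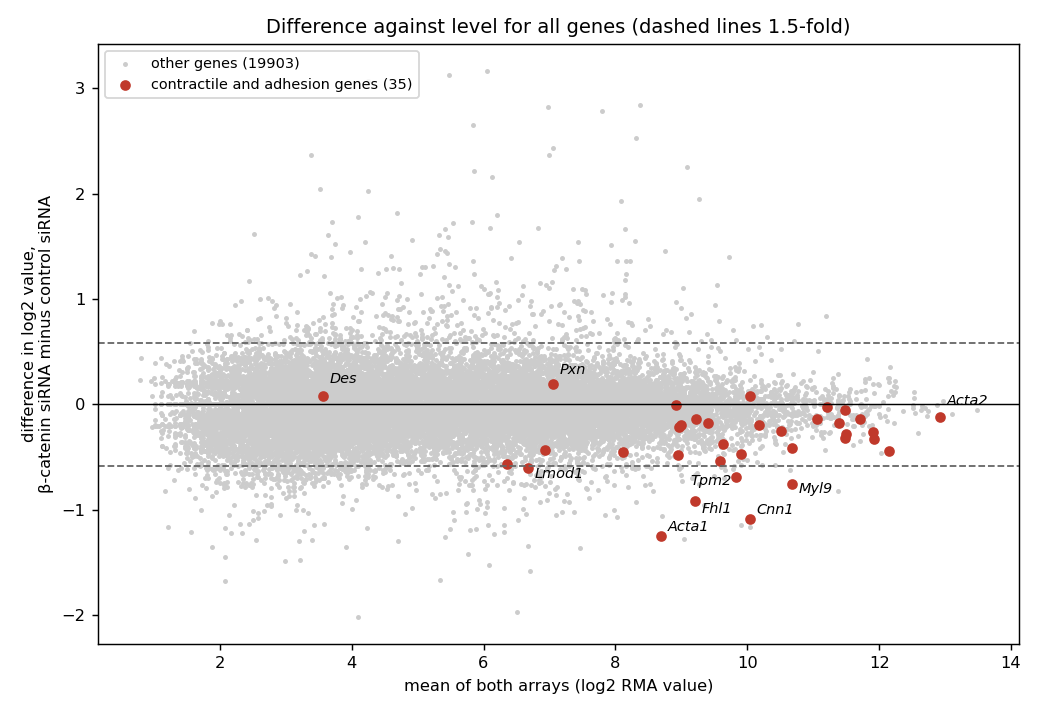
Difference in log2 value, β-catenin siRNA minus control siRNA (vertical axis), against the mean of both arrays in log2 RMA units (horizontal axis) for the 35 contractile and adhesion genes (large points) and the other 19903 genes (small points); dashed lines mark 1.5-fold. Acta1, Cnn1 and Fhl1 lie at the lower edge of the genes of their level, while most of the 35 lie between 0 and the lower dashed line.

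Other genes of the actin system were also mostly lower. In a list of other actin cytoskeleton and adhesion genes, 78 of 85 were measured, and 57 (73.1%) were lower and 20 higher by any amount, against 52.5% lower among all genes, with a median difference of -0.14. At least 1.5-fold lower were 4 of 78 (5.13%), against 2.35% of all genes, and none was 1.5-fold higher, against 2.23% of all genes. Lims2, PINCH2, which links integrin-linked kinase to adhesions, was the lowest, with 7.49 after β-catenin siRNA and 8.56 after control siRNA, a difference of -1.07. Cdc42ep3, a Cdc42 effector that acts on septins and actin, had 8.88 after β-catenin siRNA and 9.55 after control siRNA, a difference of -0.67. Tes, testin, a LIM protein of focal adhesions, differed by -0.62. The remaining gene of the 4, named after its value was seen, was Palld, palladin of stress fibres, at -0.62. The difference between the 2 lists was not tested.

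The cofactors and other targets of SRF did not share one direction. Of 6 cofactor genes, 2 were lower and 4 higher, none by 1.5-fold, with a median difference of 0.06. Mrtfb, read from the brightest of its 3 probe sets, had 7.08 after β-catenin siRNA and 6.65 after control siRNA, a difference of 0.43. Elk4 and Elk3, cofactors of the ternary complex family that compete with MRTF for SRF, differed by -0.12 and 0.10. The immediate early genes that SRF activates with the ternary complex factors were higher in 7 of 10 cases and lower in 3 (30.0%), against 52.5% of all genes lower. At least 1.5-fold higher were 3 of the 10, against 2.23% of all genes, and the lowest difference of the 10 was -0.43. Their median difference was 0.18. Fosb had 7.62 after β-catenin siRNA and 6.45 after control siRNA, a difference of 1.17. Fos differed by 0.97 and Egr2 by 0.65. Of 6 measured matricellular and related genes shared by MRTF and YAP, 5 (83.3%) were lower, against 52.5% of all genes. At least 1.5-fold lower was 1 of the 6 (16.7%), against 2.35% of all genes. This gene, Ankrd1, a stretch-responsive ankyrin repeat protein, had 6.83 after β-catenin siRNA and 7.76 after control siRNA. Ccn1, which encodes a secreted adhesion protein, differed by -0.20, and Thbs1, thrombospondin 1, by -0.12.

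A mixed list of myofibroblast-related genes had no common direction. Of its 20 measured genes, which encode TGF-β ligands, receptors and Smads, endothelin 1, cadherins, an integrin subunit, and matrix proteins with a cross-linking enzyme, 10 were lower and 10 higher, with a median difference of -0.01. The 3 genes past 1.5-fold were lower, and each encodes a secreted ligand. Edn1, endothelin 1, had 6.78 after β-catenin siRNA and 8.14 after control siRNA, a difference of -1.36. Tgfb2 had 5.40 after β-catenin siRNA and 6.17 after control siRNA, a difference of -0.77, and Tgfb3 had 9.48 after β-catenin siRNA and 10.09 after control siRNA, a difference of -0.61.

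**Figure D4:**
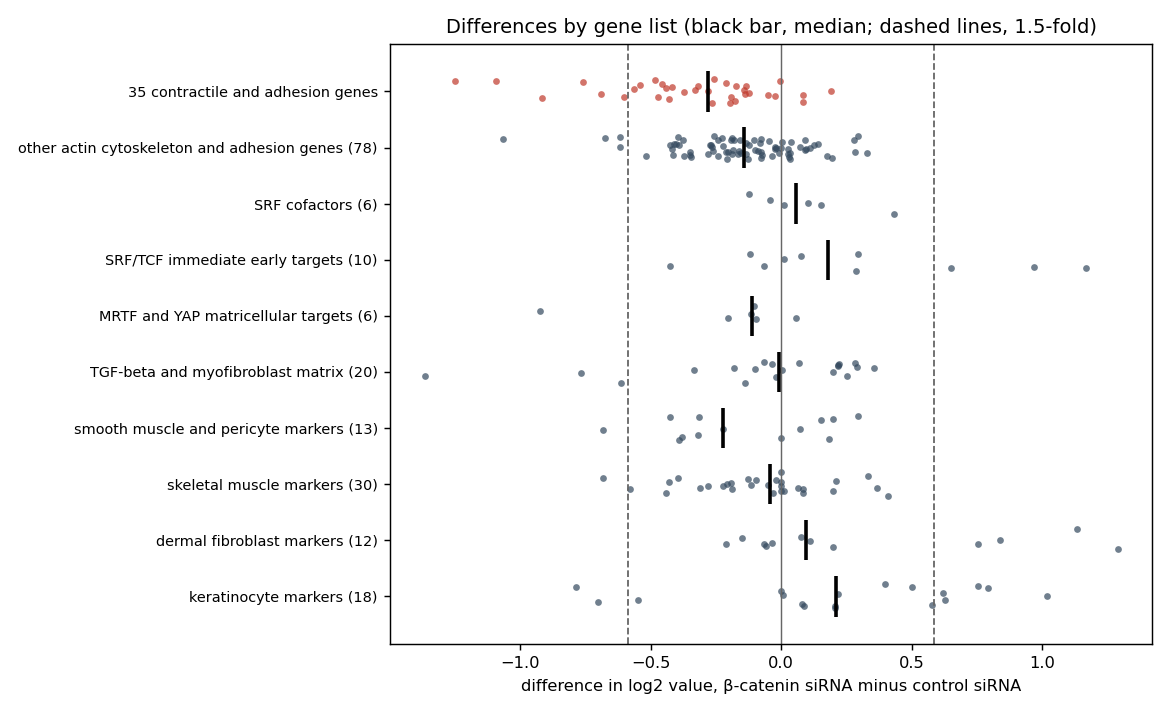
Difference in log2 value, β-catenin siRNA minus control siRNA, of each measured gene (points, spread vertically for legibility) in the 35 contractile and adhesion genes and in 9 other lists, with the number of genes in brackets, the median as a black bar and 1.5-fold as dashed lines. The median of the 35 is -0.28 and that of the 78 other actin genes -0.14. The medians of the SRF cofactor, immediate early, fibroblast and keratinocyte lists lie above 0.

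Markers of other cell types were set beside these values, because in a mixed culture fewer cells of a type and less RNA per cell cannot be told apart. Smooth muscle and pericyte markers outside the list were lower in 7 of 13 cases (53.8%) and higher in 5, against 52.5% of all genes lower. Of the 13, 6 were at or above the median level, with a median difference of -0.32. The median difference of all 13 was -0.22. Their summed linear signal (values taken out of log2 and added) was 1952 on the β-catenin siRNA array and 2129 on the control array. Myh11, the smooth muscle myosin heavy chain, had 7.52 after β-catenin siRNA and 8.20 after control siRNA, a difference of -0.68. Mcam and Notch3, of pericytes and other vascular cells, differed by -0.42 and -0.32. Further markers are named here after their values were seen. The smooth muscle marker Smtn was at or above the median level and lower. It had 7.30 after β-catenin siRNA and 7.61 after control siRNA, a difference of -0.31. The pericyte markers Pdgfrb and Cspg4 were at or above the median level and higher. Pdgfrb had 9.98 after β-catenin siRNA and 9.79 after control siRNA, a difference of 0.18. It was the brightest of the 13 and so weighs most in the summed signal, while 7 of the 13 were lower. Cspg4 had 6.10 after β-catenin siRNA and 5.91 after control siRNA, a difference of 0.20. Myocd (3.11 after β-catenin siRNA, 2.96 after control siRNA) and Rgs5 (3.12 after β-catenin siRNA, 2.83 after control siRNA) were dim on both arrays. The part of smooth muscle cells or pericytes in the lower contractile values was not tested.

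Skeletal and cardiac muscle markers were dim. Of 30 skeletal muscle markers outside the list, 3 reached the median level. The highest value of the 30 on either array was 5.75. Of the 30, 17 (56.7%) were lower and 9 higher by any amount, against 52.5% of all genes lower. Their summed linear signal was 566 on the β-catenin siRNA array and 603 on the control array. The 3 at that level differed by -0.19 for Myl4, -0.19 for Tnnc1 and 0.08 for Tnni2. Of 9 cardiac markers, 6 (66.7%) were lower, with a summed signal of 235 on the β-catenin siRNA array and 270 on the control array. Tnnt2 and Nkx2-5, the pair at or above the median level, differed by -0.40 and 0.15. Whether muscle cells contributed to Acta1, Actc1 or Fhl1 was not tested.

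Keratinocyte markers, and some fibroblast markers, were higher while the contractile genes were lower. Keratinocyte markers were higher in 14 of 18 cases and lower in 3 (16.7%), against 52.5% of all genes lower. Their summed linear signal was 1682 on the β-catenin siRNA array and 1217 on the control array. Krt5 differed by 1.02 and Krt17 by 0.79, while Itga6, an integrin of basal keratinocytes, differed by -0.78. Of 12 dermal fibroblast markers, 7 were higher and 5 (41.7%) lower, with a summed signal of 31808 on the β-catenin siRNA array and 29593 on the control array. Lum, Dpt and Dcn, which encode proteins of the dermal matrix, differed by 1.29, 1.13 and 0.84. Their part in the contractile values was not tested.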

How the data were processed

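Gene expression was measured on 2 Affymetrix whole-transcript arrays, from 300 ng of total RNA each, per the labels' protocols. The deposited table gives log2 values for 28944 probe sets, made by the authors with RMA, per the submitters' processing notes. RMA subtracts background, equalises the distributions of the arrays and combines probes into 1 value per probe set. RMA is named without software, version or filter, each not given in the sources used here. The log2 scale was judged from the range of the deposited values, 0.485 to 13.5. Equalising distributions removes an overall difference in RNA, so each difference is relative to other genes, and background left in dim probe sets shrinks their differences. The number of arrays limits the precision, and depth does not apply.

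The platform annotation gave 21789 probe sets exactly 1 symbol, 1621 several and 5534 none. Of the 21789, 21698 were updated through their gene identifiers in a RefSeq table of GRCm38.p6, and the other 91 kept their symbol. Per gene, the probe set with the highest mean was kept, without a level filter, which gave 19938 genes. The 35 genes, their groups and the other gene lists were chosen with earlier results of these data known. Genes named were the 35, Ctnnb1, and the 3 largest absolute differences per list among genes at or above the median level. Actb, Palld, Smtn, Pdgfrb, Cspg4, Myocd and Rgs5 were named outside this rule, after their values were seen. Differences, counts and medians were computed in Python 3.11.15 with pandas 2.3.3, and lowess centring (span 0.3) with statsmodels 0.14.6. The functions were tested on simulated data. No p-value was computed. Alternatives were 2 centrings, 2 probe set summaries, 2 level filters, another fold size and a shorter list.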

Additional observations from a re-analysis of the deposited data

How the results depend on the processing

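No paired analysis was possible because each group has 1 array, and for the same reason no array could be left out. The median difference of the 35 genes, or of those that a setting kept, lay between -0.30 and -0.24 over the planned settings. With Tpm3 taken from another probe set, a setting chosen after seeing the data, it was -0.31. After lowess centring, which raised the members by a median of 0.04, it was -0.24, and that of the other actin genes was -0.12. With genes at least 2 log2 units above the median level only, the other actin genes had a median of -0.18. In the list without 8 genes that mark muscle cells (Acta1, Actc1, Actg2, Des, Lmod1, Flnc, Cnn1 and Fhl1), 2 of 27 genes were at least 1.5-fold lower. In it 0 were 2-fold lower, 25 were lower by any amount, and the actin group kept only Acta2, at -0.12. Other genes of smooth muscle, such as Tagln and Csrp1, stayed in it. With the threshold at 80% of the control signal, 16 genes counted as lower. The count of genes lower by any amount was 30 of 35 with either centring, as Cald1 and Fhl2 changed sign. Most of the 232 values of single genes under an alternative could not move far by construction, so they are no measure of stability. The level filters and the shorter list leave each gene's value as it is. The probe set summaries change only genes with several probe sets, and 32 of the 35 have 1. Of the 232 values, 3 moved by more than 0.20, the pooled SD between probe sets. Myh9 was 0.11 with the mean of its probe sets and 0.36 with the other one. Tpm3, in a setting chosen after seeing the data, was -0.31 from the probe set among genes of its own chromosome. Signs also changed for Tpm3 (0.09) and Lpp (-0.02) with the second highest probe set. The causes were not tested beyond what each setting changes by construction.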
